A study of Homo sapiens with 6 samples.

Results

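The genes described here are 50 interferon-stimulated genes, chosen by name as known targets or regulators of the interferon response, and all 50 were found among the 17064 genes of the expression table. RNA from the human triple-negative breast cancer line MDA-MB-231, taken from a metastatic site, was sequenced as 6 libraries to ask how loss of the kinases MRCKα and MRCKβ alters gene expression. Vector control cells gave 2 libraries (vector 1 and vector 2), which came from separate transductions with the empty vector. The MRCKα KO library came from cells with CDC42BPA targeted, the MRCKβ KO library from cells with CDC42BPB targeted, and the DKO 1 and DKO 2 libraries from cells with both genes targeted by different guide sets. All cells, controls included, had been transduced with lentivirus made in HEK293T cells and selected with puromycin or blasticidin, and the knockout cells were used without picking of clones. Which guide was used in each single knockout library, or in DKO 1 and DKO 2, is not stated in the sources used here. The labels name no interferon treatment. The sum of expected counts, which are estimated reads per gene that need not be whole numbers, lay between 10349898 in vector 2 and 10657857 in vector 1, so the depth differed by at most 2.98%.

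The targeted genes were measured first. CDC42BPA had an FPKM (fragments per kilobase of transcript, scaled to library size) of 36.4 and 23.3 in the vector libraries, 29.4 in MRCKα KO, 34.9 in MRCKβ KO, and 28.3 and 26.1 in DKO 1 and DKO 2. CDC42BPB had an FPKM of 30.3 and 29.1 in the vector libraries, 27.3 in MRCKα KO, 25.7 in MRCKβ KO, and 23.4 and 23.5 in DKO 1 and DKO 2. Neither transcript was near 0 in a library where it was targeted. Since small deletions in a coding exon need not remove the RNA, these levels do not check the genotype labels. The study checked the deletions on protein by Western blot and reports very high efficiency in MDA-MB-231 cells without picking of clones.

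The line carried the markers of mesenchymal-like MDA-MB-231 cells. VIM lay between 1532 and 2052 FPKM, CD44 between 111 and 203 FPKM and AXL between 237 and 367 FPKM over the 6 libraries, whereas SPARC, also listed for such cells, stayed at or under 1.22 FPKM. The labels call the cells epithelial, and KRT8, KRT18 and KRT19 were present at 21.5 to 220.1 FPKM, while the epithelial adhesion genes CDH1 and EPCAM stayed at or under 0.64 and 2.62 FPKM. The hormone receptor genes ESR1 and PGR were at or under 0.87 and 0.03 FPKM, and ERBB2 lay between 13.2 and 16.2 FPKM. Of the leukocyte markers, PTPRC, CD3E, CD14, ITGAM and HLA-DRA were at or under 1.24 FPKM, LYZ reached 8.87 FPKM and CD68, a lysosomal protein gene also active in many other cells, reached 98.5 FPKM.

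Interferons are secreted proteins, and those of type I are released by cells that sense viral RNA or misplaced DNA. Type I interferon binds a receptor at the cell surface whose kinases phosphorylate STAT proteins, and STAT2 then joins a STAT partner and IRF9 in a complex that binds the interferon-stimulated response element (ISRE) in target promoters. Interferon gamma acts through STAT dimers on a different DNA element, the gamma-activated site (GAS), and the genes switched on by either route block viral entry, translation and replication, or tag cells for immune recognition.

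Measured per length, the members covered a wide range of levels without a named interferon treatment. Of the 50 members, 40 had a mean FPKM of at least 1 (80% of members, against 68.6% of all genes) and 24 a mean of at least 10 (48%, against 39.6%). The median of the members' mean FPKM was 9.77, beside 5.87 over all genes. At least 10 counts were reached in every library by 42 members and in no library by 3 members, IFI27, CXCL10 and CXCL11. Of the members, 27 had fractional counts, where reads are shared between genes or transcripts and the split is an estimate, and these include IFITM1, IFITM2 and IFITM3, which are neighbours of similar sequence. Among the 42 members with 10 counts in every library, the highest library exceeded the lowest 1.55-fold at the median, beside 1.38-fold for 12264 genes filtered in the same way. A lower level in a library of pooled cells can mean fewer expressing cells or less RNA per cell, and these cannot be told apart here.

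**Figure D1:**
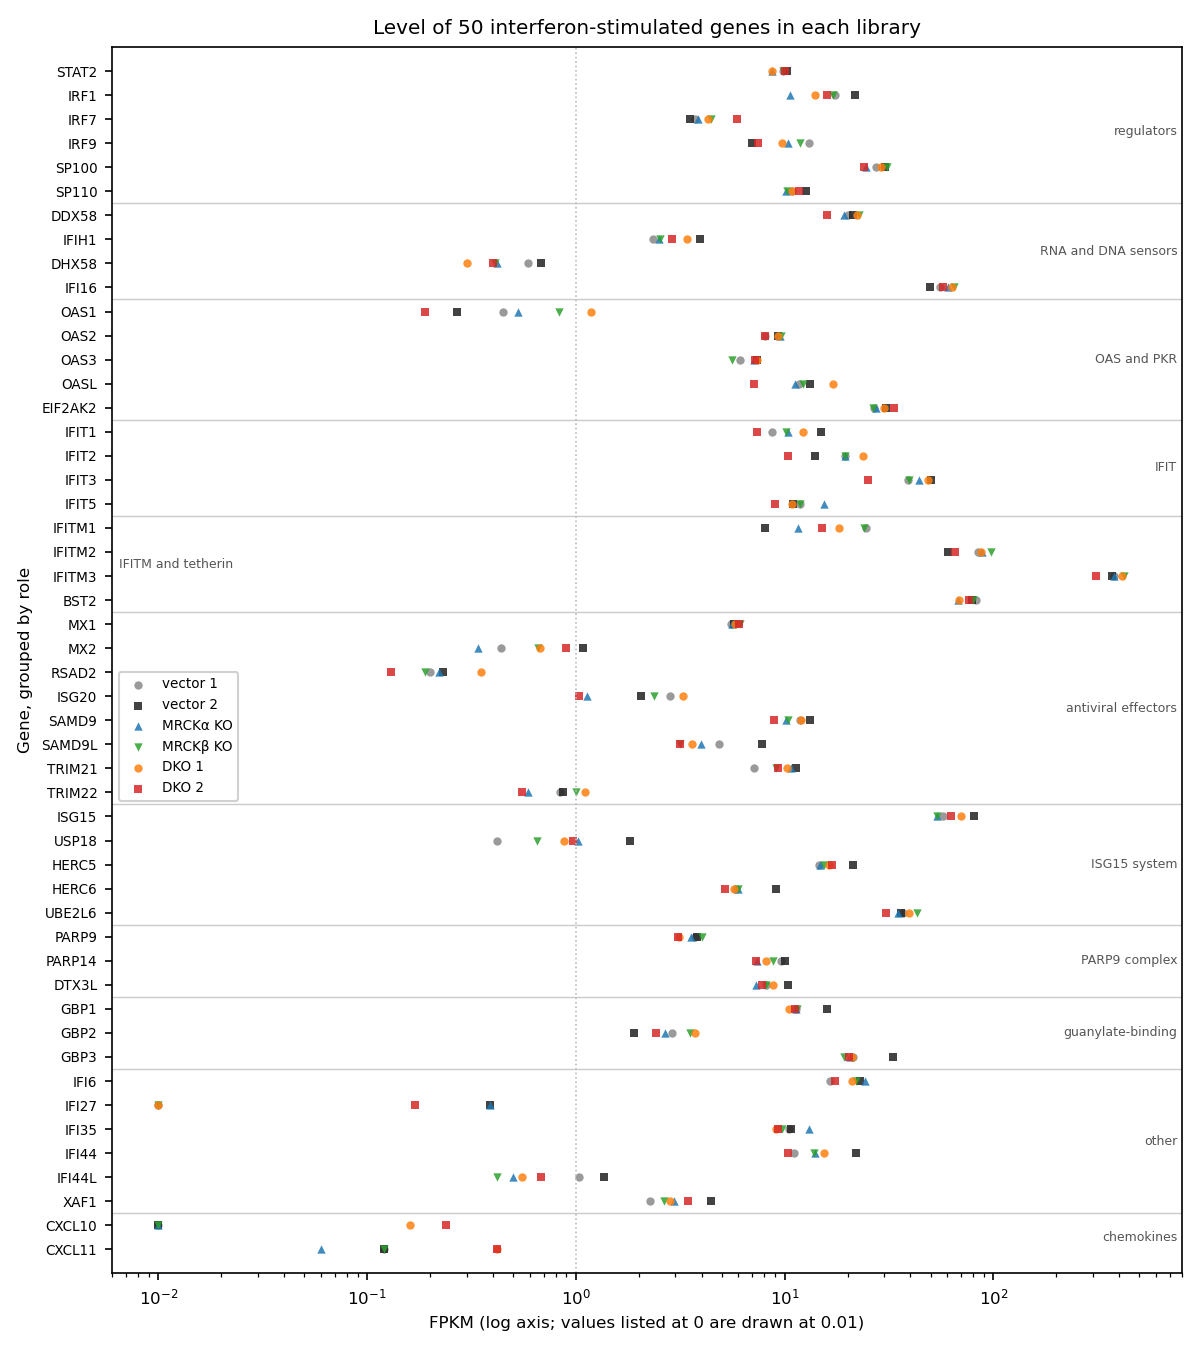
FPKM of the 50 members in each of the 6 libraries, on a log axis with 1 symbol per library and genes grouped by role. Levels run from 0 for CXCL10 in 4 libraries to 423 FPKM for IFITM3 in MRCKβ KO, and for most genes the symbols of the 6 libraries lie close together beside the distances between genes.

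The promoters were searched for the letters of both elements. RefSeq windows on GRCh38.p14, reaching from 250 bases before each transcription start to 50 bases after it, were matched for 40 of the 50 members, and 11 of these had several starts. IRF7, DHX58, OAS2, OASL, IFIT2, IFITM2, MX2, TRIM22, USP18 and GBP2 had no match. The ISRE was written as GAAANNGAAA, where N is any base, and the GAS as TTCNNNGAA, and each was searched on both strands (on the other strand the ISRE reads TTTCNNTTTC and the GAS reads the same). An ISRE match was found for 26 of 40 members (65.0%), beside 1195 of 27305 genes with a window (4.38%), and in 3.57% of all 35116 windows. A GAS match was found for 12 of 40 members, beside 2560 genes (9.38%), and in 7.66% of all windows. A total of 6 members held both and 8 held neither, among them STAT2, IFI16 and SAMD9L. A match describes the letters in the window and is not a measured binding site.

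Among the regulators, STAT2 and IRF9 form the DNA-binding complex of type I interferon signalling together with a STAT partner. STAT2 had an FPKM of 9.87 and 10.2 in the vector libraries, 8.69 in MRCKα KO, 9.87 in MRCKβ KO, and 8.65 and 10.1 in DKO 1 and DKO 2. IRF9, its DNA-contacting subunit, had 13.1 and 6.98 in the vector libraries, 10.3 in MRCKα KO, 11.8 in MRCKβ KO, and 9.74 and 7.44 in DKO 1 and DKO 2. STAT2 was within 1.18-fold in all 6 libraries, whereas IRF9 was low in vector 2 and DKO 2, so that its vector values enclosed those of the other libraries. IRF1, a transcription factor induced by interferon gamma and by NF-κB, had an FPKM of 17.5 and 21.8 in the vector libraries, 10.6 in MRCKα KO, 17.04 in MRCKβ KO, and 13.95 and 15.9 in DKO 1 and DKO 2. Both vector libraries lay above MRCKα KO and both DKO libraries, and vector 2 was the highest of the 6. IRF7, the factor that amplifies interferon gene transcription in infected cells, had 3.70 and 3.53 in the vector libraries, 3.83 in MRCKα KO, 4.44 in MRCKβ KO, and 4.28 and 5.93 in DKO 1 and DKO 2, with 122 counts in DKO 2 and 71 to 79 counts elsewhere. SP100 and SP110, proteins of nuclear bodies, lay between 23.9 and 31.0 FPKM and between 10.2 and 12.7 FPKM.
The promoter stretches of IRF1 and IRF9 are shown because both hold a GAS match and because IRF1 passed an unadjusted p of 0.05 below, with the GAS letters in capitals. The IRF1 stretch is chr5:132490854-132490932 on the minus strand and the IRF9 stretch chr14:24161167-24161245 on the plus strand.
IRF1: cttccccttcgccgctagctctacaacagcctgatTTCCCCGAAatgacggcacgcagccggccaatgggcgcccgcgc
IRF9: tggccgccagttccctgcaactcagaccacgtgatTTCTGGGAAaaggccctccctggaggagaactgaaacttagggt
Counted from the transcription start, the match begins at base -124 in IRF1 and -63 in IRF9, and neither window held an ISRE match.

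The sensors detect foreign nucleic acid. DDX58 (RIG-I), which binds short double-stranded viral RNA with an uncapped end, had an FPKM of 20.1 and 21.3 in the vector libraries, 19.3 in MRCKα KO, 22.8 in MRCKβ KO, and 22.2 and 15.97 in DKO 1 and DKO 2. IFI16, a nuclear DNA sensor, had 55.3 and 49.7 in the vector libraries, 60.8 in MRCKα KO, 64.4 in MRCKβ KO, and 63.4 and 57.3 in DKO 1 and DKO 2. For IFI16 both vector libraries were the lowest of the 6, and for DDX58 DKO 2 was the lowest. IFIH1 (MDA5), the sensor of long double-stranded RNA, was at 2.35 FPKM in vector 1 and 3.93 FPKM in vector 2, a span that covered the other 4 libraries. DHX58, which modulates both RNA sensors, rested on few reads, with 16 and 18 counts in the vector libraries, 11 in MRCKα KO, 11 in MRCKβ KO, and 8 and 11 in DKO 1 and DKO 2, and both vector libraries had the highest counts.

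The oligoadenylate synthetases make the messenger that activates RNase L, and EIF2AK2 (PKR) halts translation on sensing double-stranded RNA. EIF2AK2 had an FPKM of 26.8 and 30.5 in the vector libraries, 27.3 in MRCKα KO, 26.5 in MRCKβ KO, and 29.8 and 33.4 in DKO 1 and DKO 2. OAS3 had 6.10 and 7.41 in the vector libraries, 7.12 in MRCKα KO, 5.59 in MRCKβ KO, and 7.37 and 7.19 in DKO 1 and DKO 2, and OAS2 lay between 8.06 and 9.60 FPKM. These 3 genes differed little between libraries, with the groups overlapping for each. OASL, a family member without synthetase activity, had 11.8 and 13.3 in the vector libraries, 11.2 in MRCKα KO, 12.2 in MRCKβ KO, and 16.97 and 7.15 in DKO 1 and DKO 2, so that DKO 1 was the highest and DKO 2 the lowest library. OAS1 had 7 and 4 counts in the vector libraries, 8 in MRCKα KO, 16 in MRCKβ KO, and 19 and 3 in DKO 1 and DKO 2, too few for the filter of the DKO test, and MRCKβ KO and DKO 1 held the highest values.

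The IFIT proteins bind viral RNA that lacks host cap modification, and their genes are among the most strongly interferon-induced. IFIT3 had an FPKM of 38.9 and 50.2 in the vector libraries, 44.2 in MRCKα KO, 39.6 in MRCKβ KO, and 48.3 and 25.2 in DKO 1 and DKO 2. IFIT1 had 8.73 and 14.97 in the vector libraries, 10.4 in MRCKα KO, 10.1 in MRCKβ KO, and 12.2 and 7.37 in DKO 1 and DKO 2. IFIT2 had 19.5 and 13.98 in the vector libraries, 19.4 in MRCKα KO, 19.4 in MRCKβ KO, and 23.7 and 10.4 in DKO 1 and DKO 2. DKO 2 was the lowest library for all of them and also for IFIT5, with an FPKM of 11.9 and 10.9 in the vector libraries, 15.4 in MRCKα KO, 11.8 in MRCKβ KO, and 10.9 and 9.02 in DKO 1 and DKO 2, while vector 2 was above vector 1 for IFIT1 and IFIT3 and below it for IFIT2.
The IFIT1 stretch, chr10:89392472-89392564 on the plus strand, is shown because IFIT1 differed within both replicated groups, and the ISRE letters, which lie on the other strand, are in capitals.
IFIT1: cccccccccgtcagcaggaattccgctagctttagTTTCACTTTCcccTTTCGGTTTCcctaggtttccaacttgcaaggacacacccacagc
The matches begin at bases -116 and -103.

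The IFITM proteins sit in membranes and hinder viral fusion, and BST2 (tetherin) holds budding virions at the cell surface. IFITM3 was the most abundant member, with an FPKM of 379.6 and 369 in the vector libraries, 377 in MRCKα KO, 423 in MRCKβ KO, and 413 and 311 in DKO 1 and DKO 2. IFITM2 followed with 84.7 and 60.7 in the vector libraries, 88.4 in MRCKα KO, 96.97 in MRCKβ KO, and 86.7 and 65.7 in DKO 1 and DKO 2, and BST2 had 82.1 and 78.98 in the vector libraries, 67.3 in MRCKα KO, 79.6 in MRCKβ KO, and 68.5 and 76.8 in DKO 1 and DKO 2. Vector 2 and DKO 2 were the lowest libraries for IFITM2, DKO 2 was the lowest for IFITM3, and BST2 was lower in MRCKα KO and both DKO libraries than in both vector libraries. IFITM1 had 24.5 and 8.05 in the vector libraries, 11.6 in MRCKα KO, 23.9 in MRCKβ KO, and 18.1 and 15.1 in DKO 1 and DKO 2, the highest value in vector 1 and the lowest in vector 2, so the other libraries lay inside the span of the controls.
The stretches of IFITM1, chr11:313965-314039 on the plus strand, and IFITM3, chr11:320861-320947 on the minus strand, are shown because IFITM1 differed between the vector libraries and its neighbour IFITM3 hardly did, although both hold the ISRE letters, in capitals.
IFITM1: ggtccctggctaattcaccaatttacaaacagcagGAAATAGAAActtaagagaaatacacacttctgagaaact
IFITM3: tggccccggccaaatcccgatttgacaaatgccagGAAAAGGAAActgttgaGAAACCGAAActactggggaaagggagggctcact
The match shown for IFITM1 begins at base -40, and those of IFITM3 begin at -52 and -35. A further ISRE match of IFITM1 begins at -6 and runs past the start, so it is not marked, and neither is its GAS match at -12.

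Several antiviral effectors varied more. SAMD9L, a large cytoplasmic protein that restricts translation and growth, had an FPKM of 4.83 and 7.82 in the vector libraries, 3.98 in MRCKα KO, 3.15 in MRCKβ KO, and 3.60 and 3.17 in DKO 1 and DKO 2. Both vector libraries were above all 4 knockout libraries, with vector 2 well above vector 1. Its neighbour SAMD9 had 11.9 and 13.3 in the vector libraries, 10.2 in MRCKα KO, 10.4 in MRCKβ KO, and 11.97 and 8.94 in DKO 1 and DKO 2, again with the vector libraries at or near the top. MX1, a dynamin-like GTPase that traps viral nucleocapsids, had 5.54 and 5.74 in the vector libraries, 5.57 in MRCKα KO, 6.14 in MRCKβ KO, and 5.81 and 6.04 in DKO 1 and DKO 2 and differed by little. MX2, a relative that acts on nuclear import of viruses, had 11 and 31 counts in the vector libraries, 10.1 in MRCKα KO, 20 in MRCKβ KO, and 20.1 and 27.1 in DKO 1 and DKO 2, and the vector libraries enclosed all other values except that of MRCKα KO. ISG20, an exonuclease, had 35.04 and 24.2 counts in the vector libraries, 13.3 in MRCKα KO, 28.2 in MRCKβ KO, and 34.95 and 10.97 in DKO 1 and DKO 2, with MRCKα KO and DKO 2 the lowest. The ubiquitin ligases TRIM21 and TRIM22 lay between 7.16 and 11.4 FPKM and between 0.55 and 1.10 FPKM, and RSAD2 (viperin), a radical enzyme, had at most 12.9 counts.

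ISG15 is a ubiquitin-like protein that UBE2L6 and HERC5 attach to other proteins and USP18 removes. ISG15 had an FPKM of 57.3 and 80.7 in the vector libraries, 53.5 in MRCKα KO, 53.7 in MRCKβ KO, and 69.7 and 62.7 in DKO 1 and DKO 2. HERC5 had 14.7 and 21.3 in the vector libraries, 14.8 in MRCKα KO, 15.5 in MRCKβ KO, and 16.3 and 16.9 in DKO 1 and DKO 2. Its relative HERC6 had 5.87 and 9.10 in the vector libraries, 6 in MRCKα KO, 5.98 in MRCKβ KO, and 5.70 and 5.20 in DKO 1 and DKO 2. For all of them vector 2 was the highest library, while vector 1 lay among the knockout libraries for ISG15 and HERC6 and just below them for HERC5. USP18, which also shuts off the type I receptor, had 9 and 38 counts in the vector libraries, 22 in MRCKα KO, 14 in MRCKβ KO, and 19 and 21 in DKO 1 and DKO 2, the lowest in vector 1 and the highest in vector 2. UBE2L6 lay between 30.6 and 43.2 FPKM.
The ISG15 stretch, chr1:1013349-1013434 on the plus strand, is shown as the promoter of the gene that names this system, and the capitals mark ISRE matches that overlap each other.
ISG15: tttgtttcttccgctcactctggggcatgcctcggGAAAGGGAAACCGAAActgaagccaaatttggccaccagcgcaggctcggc
The matches begin at bases -113 and -107.

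PARP9 and DTX3L act as a pair in ADP-ribosylation and ubiquitination of host and viral proteins, and PARP14 is a related ADP-ribosyltransferase. PARP14 had an FPKM of 9.56 and 9.99 in the vector libraries, 7.36 in MRCKα KO, 8.84 in MRCKβ KO, and 8.10 and 7.26 in DKO 1 and DKO 2. DTX3L had 8.15 and 10.4 in the vector libraries, 7.29 in MRCKα KO, 8.11 in MRCKβ KO, and 8.77 and 7.81 in DKO 1 and DKO 2, and PARP9 lay between 3.09 and 4.01 FPKM. PARP14 was higher in both vector libraries than in all 4 knockout libraries, and the vector libraries were close to each other. For DTX3L only vector 2 stood above the rest.
The PARP14 stretch, chr3:122680775-122680838 on the plus strand, is shown because PARP14 passed an unadjusted p of 0.05 below, with the ISRE letters in capitals.
PARP14: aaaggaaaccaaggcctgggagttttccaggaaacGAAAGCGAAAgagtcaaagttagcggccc
The match begins at base -29, and a GAS match at -40 is not marked.

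The guanylate-binding proteins attack the compartments of intracellular pathogens. GBP3 had an FPKM of 21.2 and 33.1 in the vector libraries, 20.5 in MRCKα KO, 19.3 in MRCKβ KO, and 21.1 and 20.4 in DKO 1 and DKO 2. GBP1 had 11.3 and 15.9 in the vector libraries, 11.3 in MRCKα KO, 11.5 in MRCKβ KO, and 10.5 and 11.2 in DKO 1 and DKO 2. Vector 2 was the highest library for both. GBP2 had 2.90 and 1.89 in the vector libraries, 2.67 in MRCKα KO, 3.54 in MRCKβ KO, and 3.71 and 2.41 in DKO 1 and DKO 2, with vector 2 the lowest, so the family did not share a direction between the control libraries.

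Of the remaining members, IFI44 and IFI44L are neighbouring relatives that are strongly interferon-induced and in part dampen antiviral signalling. IFI44 had an FPKM of 11.1 and 21.95 in the vector libraries, 13.9 in MRCKα KO, 13.8 in MRCKβ KO, and 15.4 and 10.3 in DKO 1 and DKO 2. IFI44L had 17 and 38 counts in the vector libraries, 10 in MRCKα KO, 9 in MRCKβ KO, and 12 and 14 in DKO 1 and DKO 2. Vector 2 was the highest library for both, and for IFI44L vector 1 came next. FPKM of IFI44L was 1.03 in vector 1 and 1.37 in vector 2, a smaller ratio than the counts give, and FPKM, unlike counts, also depends on the transcript length used. XAF1, which promotes cell death, had 2.27 and 4.43 in the vector libraries, 2.94 in MRCKα KO, 2.63 in MRCKβ KO, and 2.82 and 3.43 in DKO 1 and DKO 2, with vector 1 the lowest and vector 2 the highest. IFI6, an endoplasmic reticulum protein, lay between 16.5 and 24.4 FPKM and IFI35 between 9.12 and 13.1 FPKM. IFI27 had at most 2 counts in a library. The T-cell-attracting chemokine genes were barely read, with 0 and 0 counts in the vector libraries, 0 in MRCKα KO, 0 in MRCKβ KO, and 2 and 3 in DKO 1 and DKO 2 for CXCL10 and 2 and 2 counts in the vector libraries, 1 in MRCKα KO, 2 in MRCKβ KO, and 7 and 7 in DKO 1 and DKO 2 for CXCL11. The ratio of DKO to vector reads of CXCL11 was 3.45 (exact 95% counting interval 1.08 to 14.4). The interval covers counting error only, as do all counting intervals given here. CXCL11 was picked after its values were seen, and the study lists it among the genes raised in DKO, so the interval is not a test of a rise. CXCL10 was at or under 3 counts in every library.
The stretches of IFI44, chr1:78649736-78649788 on the plus strand, and IFI44L, chr1:78620249-78620419 on the plus strand, are shown because both differed between the vector libraries, with the ISRE letters in capitals.
IFI44: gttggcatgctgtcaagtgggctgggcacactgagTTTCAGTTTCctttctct
IFI44L: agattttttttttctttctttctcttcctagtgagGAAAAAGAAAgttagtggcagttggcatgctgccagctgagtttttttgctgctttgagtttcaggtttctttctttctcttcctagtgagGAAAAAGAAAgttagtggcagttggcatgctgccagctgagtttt
The match of IFI44 lies on the other strand and begins at base -18 from the first of its listed starts. Those of IFI44L begin at -164 and -73 and hold the same letters.

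**Figure D2:**
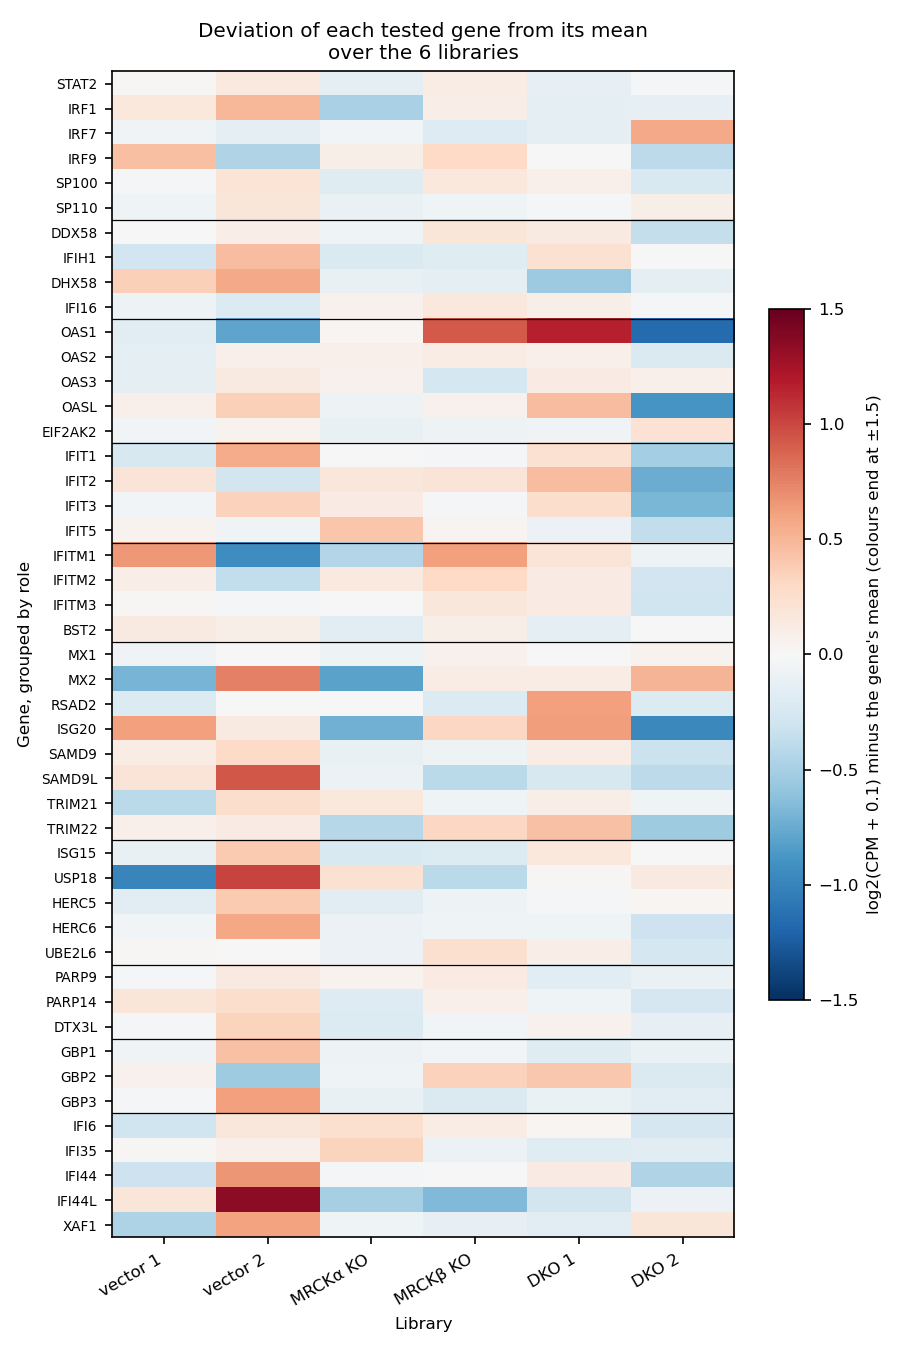
Difference of each of the 47 tested members from its own mean over the 6 libraries, in log2 of counts scaled to library size plus 0.1, with libraries as columns and genes grouped by role as rows. The vector 2 column is mostly above the mean (36 of 47 members) and the DKO 2 column mostly below it (10 of 47 above).

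The double knockout was compared first. In DKO against vector, 34 of 45 tested members (75.6%) had a fitted log2 fold change below 0, beside 50.7% of 13123 tested genes, and the median log2 fold change was -0.16 over the members and -0.00 over all genes. The median was -0.24 over 5 mesenchymal, -0.35 over 5 epithelial and -0.78 over 3 fibroblast markers. It was -0.02 over 4 leukocyte markers, -0.03 over 2 hormone receptor genes and -0.15 over 8 housekeeping genes. The part of these differences in the members' values was not tested. The fold changes were small, from -1.10 for IFI44L to 0.37 for IRF7. By edgeR's quasi-likelihood F-test, adjusted by Benjamini-Hochberg over all tested genes, 0 of 45 members passed an adjusted p of 0.05, beside 0.00% of all genes, and DESeq2 called 0 members and 4 of all genes. At an unadjusted p under 0.05, 3 of 45 members were lower (6.67%, beside 1.02% of all genes lower) and 0 were higher (beside 1.36% of all genes higher), where all genes gave 313 in both directions. The vector replicates came from separate transductions and the DKO replicates from different guides, and p-values measure only the spread between such libraries.

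The 3 members were SAMD9L, IRF1 and PARP14, given here with the standard error (SE) of each fitted value. SAMD9L had a mean FPKM of 6.33 ± 2.11 (SD, n = 2) in vector and 3.39 ± 0.304 (SD, n = 2) in DKO, with a log2 fold change of -0.92 (SE 0.25) and an unadjusted p of 0.0104. IRF1 had 19.6 ± 3.09 (SD, n = 2) in vector and 14.9 ± 1.38 (SD, n = 2) in DKO, with a log2 fold change of -0.47 (SE 0.16) and an unadjusted p of 0.0237. PARP14 had 9.78 ± 0.304 (SD, n = 2) in vector and 7.68 ± 0.594 (SD, n = 2) in DKO, with a log2 fold change of -0.37 (SE 0.13) and an unadjusted p of 0.0307. For each of them both DKO libraries lay below both vector libraries, but none passed the adjustment (adjusted p = 1.00 for each by edgeR's quasi-likelihood F-test, adjusted by Benjamini-Hochberg). Leaving out 1 library in turn, the log2 fold change lay between -1.24 without vector 1 and -0.50 without vector 2 for SAMD9L, between -0.63 without vector 1 and -0.29 without vector 2 for IRF1, and between -0.47 without DKO 1 and -0.29 without DKO 2 for PARP14. SAMD9L kept an unadjusted p under 0.05 in each of these fits, whereas IRF1 and PARP14 kept it only without vector 1, with p of 0.0863 to 0.0953 for IRF1 and 0.0645 to 0.230 for PARP14 in the others, and neither had it by limma on FPKM.

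The other members at the ends of the order had an unadjusted p above 0.05. At the low end IFI44L had a log2 fold change of -1.10 (SE 0.57), the RNA sensor regulator DHX58 -0.85 (SE 0.52) and HERC6 -0.48 (SE 0.24), and for each of them both DKO libraries lay below both vector libraries. Without vector 1 and without vector 2, IFI44L was -1.58 and -0.38 and HERC6 was -0.76 and -0.14, while DHX58 stayed between -1.09 and -0.65 whichever library was left out. At the high end the values were 0.37 (SE 0.32) for IRF7, 0.33 (SE 0.32) for GBP2, 0.18 (SE 0.12) for IFI16, 0.13 (SE 0.60) for MX2 and 0.10 (SE 0.15) for OAS3. By normalized counts only IFI16 of these had both DKO libraries above both vector libraries, and by FPKM IRF7 did as well. Leaving out 1 library in turn, IRF7 lay between -0.03 without DKO 2 and 0.67 without DKO 1, GBP2 between -0.02 without DKO 1 and 0.67 without vector 1, IFI16 between 0.11 without vector 2 and 0.24 without vector 1, MX2 between -0.44 without vector 1 and 1.09 without vector 2, and OAS3 between -0.03 without vector 1 and 0.24 without vector 2. STAT2 and IRF9, the subunits of the ISRE-binding complex, had -0.16 (SE 0.13) and -0.25 (SE 0.33), and without vector 1 and without vector 2 STAT2 was -0.22 and -0.09 and IRF9 was 0.28 and -0.63.

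**Figure D3:**
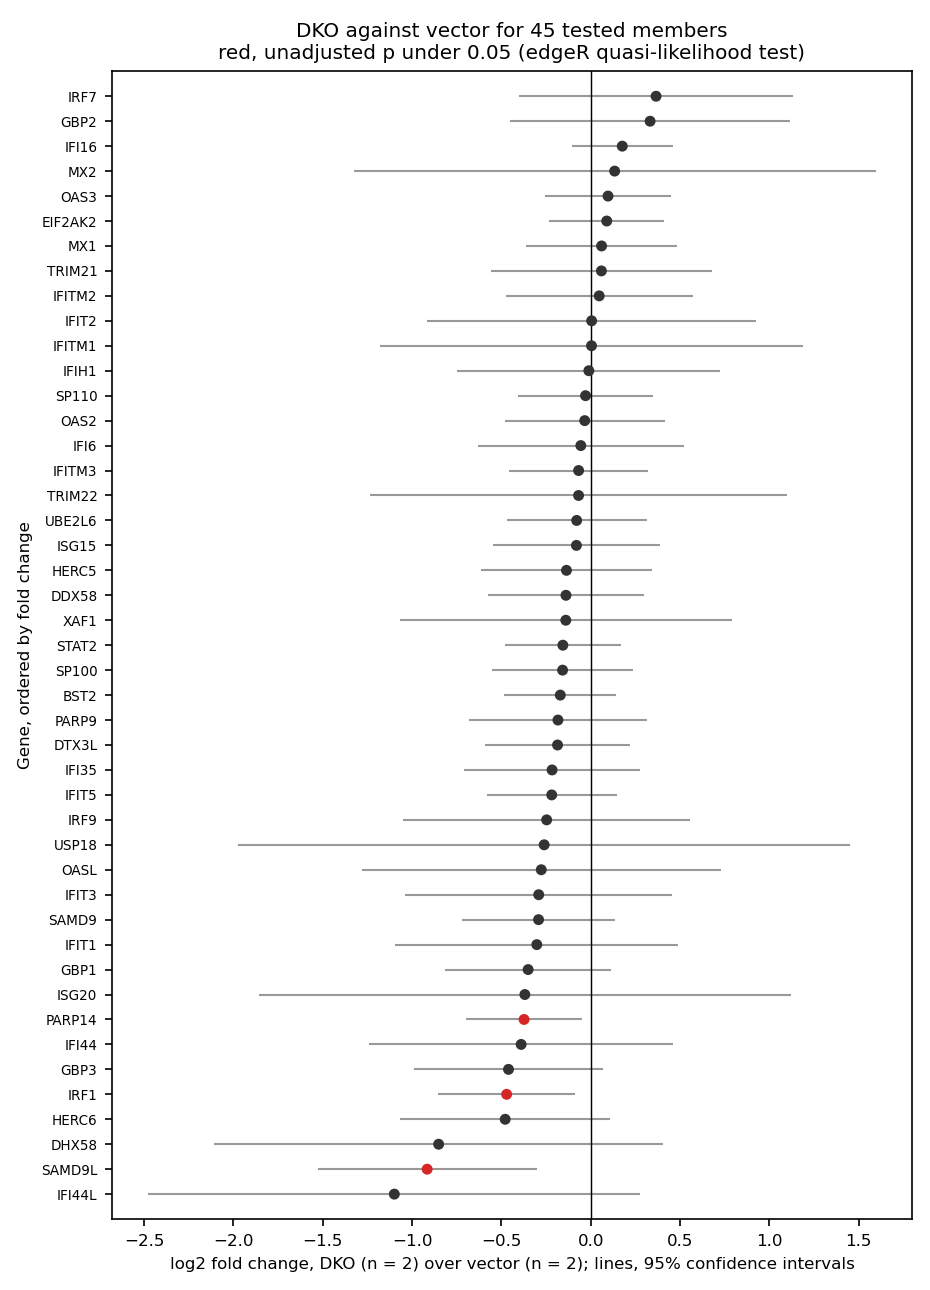
Fitted log2 fold change of DKO over vector for the 45 tested members, ordered by value, with lines for 95% confidence intervals and red points for an unadjusted p under 0.05. Only the intervals of SAMD9L, IRF1 and PARP14 leave out 0, and most points lie slightly below it.

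Sorted by library in normalized counts, 14 of 45 members (31.1%) had both DKO values below both vector values, beside 14.6% of all tested genes. Both were above for 2 members (4.44%), IFI16 and MX1, beside 14.4% of all tested genes. By FPKM the numbers were 12 below and 3 above, and the share of all genes by FPKM is not given. By role, the median log2 fold change was -0.35 for the guanylate-binding proteins, -0.25 for the IFIT group, -0.22 for the 5 tested members called other (IFI6, IFI35, IFI44, IFI44L and XAF1), -0.19 for the PARP9 group, -0.16 for the regulators, -0.14 for the ISG15 system, -0.07 for the sensors, -0.07 for the antiviral effectors, -0.03 for the IFITM and tetherin group and 0.03 for the OAS and PKR group. No test compared these groups of 3 to 7 members. The median over the members depended on single libraries. It was -0.24 without vector 1, -0.08 without vector 2, -0.28 without DKO 1 and -0.03 without DKO 2, and the number of members at an unadjusted p under 0.05 was 10 without vector 1 (beside 1154 of 13417 genes), 2 without vector 2 (beside 805 of 13517), 4 without DKO 1 (beside 337 of 13499) and 1 without DKO 2 (beside 135 of 13453), against 3 members and 313 of 13123 genes in the main fit. In such a fit 1 group has a single library, so the spread comes from the pair of the other group alone and the p-values are weak evidence. By the fold rule of the study, which leaves out genes more than 2-fold apart between replicates, averages FPKM and asks for a 2-fold difference in either direction, 1 of 40 members was higher (beside 1.00% of all genes) and 0 were lower (beside 0.759%). The higher member was CXCL11, with the few counts given above. The number of members that passed the rule rose when either vector library was left out, and the share of all genes in those settings is not given. The study also left out poorly expressed genes at a limit its text does not give, and the rule here has no such limit. With a mean FPKM of 1 or more asked for in either group, 0 members passed in DKO, 2 in MRCKα KO and 2 in MRCKβ KO. The share of all genes under this limit is not given, so these counts cannot be set beside it.

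The MRCKα KO values describe 1 library. It was compared with the vector libraries in a fit of all 6, which assumes that it varies like the replicated groups, and it shares its controls with the other comparisons. Of 47 tested members, 32 (68.1%) had a fitted log2 fold change below 0, beside 50.2% of 13764 tested genes, with medians of -0.21 over the members and -0.00 over all genes. By edgeR's quasi-likelihood F-test, adjusted by Benjamini-Hochberg, 0 of 47 members passed an adjusted p of 0.05, beside 0.00% of all genes. At an unadjusted p under 0.05, 2 members were lower (4.26%, beside 1.71%) and 0 were higher (beside 1.31%).

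The interferon regulatory factor IRF1 was at 10.6 FPKM in MRCKα KO, against 19.6 ± 3.09 (SD, n = 2) in vector, with a log2 fold change of -0.83 (SE 0.21) and an unadjusted p of 0.00655. PARP14 was at 7.36 FPKM, against 9.78 ± 0.304 (SD, n = 2), with a log2 fold change of -0.42 (SE 0.17) and an unadjusted p of 0.0432. By the fold rule, 3 of 45 members were lower (6.67%, beside 2.47% of all genes), ISG20, IFI44L and CXCL11, and 0 were higher (beside 1.91%). ISG20 rested on the counts given above, and CXCL11 on 1 count against 2 and 2. The number of members that passed the rule rose when either vector library was left out, and the share of all genes in those settings is not given. The median over the members was -0.29 without vector 1 and -0.03 without vector 2, and the number of members at an unadjusted p under 0.05 was 10 without vector 1 (21.3%, beside 9.18% of all genes) and 2 without vector 2 (4.26%, beside 5.24%), against 2 in the main fit (beside 3.02%). Such a fit sets 1 library against 1, with the spread taken from the DKO pair alone. IRF1 lay between -0.995 and -0.64 and PARP14 between -0.46 and -0.37 without a vector library, with an unadjusted p of 0.0719 for PARP14 without vector 2, a setting added after seeing the data. Of the HEK293T markers, 2 of 4 were analysed, and both had reads in this library, NEFM with 19 counts and LIN28B with 10, against 0 in both vector libraries, in MRCKβ KO and in DKO 2, and 2 and 1 in DKO 1. Their summed level was 0.83 FPKM in MRCKα KO, 0.10 FPKM in DKO 1 and 0 FPKM in the other 4 libraries, with NEFM the more abundant, and their part in the values of this library was not tested.

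The MRCKβ KO values also describe 1 library, set against the same vector libraries. Of 47 tested members, 29 (61.7%) had a fitted log2 fold change below 0, beside 50.3% of 13764 tested genes, and the medians were -0.10 over the members and -0.00 over all genes. By edgeR's quasi-likelihood F-test, adjusted by Benjamini-Hochberg, 0 of 47 passed an adjusted p of 0.05, beside 0.00% of all genes, while at an unadjusted p under 0.05, 1 was lower (2.13%, beside 0.574%) and 0 were higher (beside 0.632%). That member was SAMD9L, at 3.15 FPKM against 6.33 ± 2.11 (SD, n = 2) in vector, with a log2 fold change of -1.02 (SE 0.33) and an unadjusted p of 0.0192. By the fold rule, 1 of 45 members was higher (2.22%, beside 1.65% of all genes) and 2 were lower (4.44%, beside 1.84%). The higher member was OAS1, with 16 counts against 7 and 4 in the vector libraries. The lower members were SAMD9L and IFI44L, the latter with 9 counts against 17 and 38. The number of members that passed the rule rose without vector 1 and fell without vector 2, and the share of all genes in those settings is not given. The median over the members was -0.19 without vector 1 and 0.02 without vector 2, and the number of members at an unadjusted p under 0.05 was 11 without vector 1 (23.4%, beside 12.3% of all genes) and 1 without vector 2 (2.13%, beside 1.51%), against 1 in the main fit (beside 1.21%). Here too 1 library is set against 1, with the spread taken from the DKO pair alone. SAMD9L was -1.33 without vector 1 and -0.60 without vector 2, a setting added after seeing the data.

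The members also differed between the libraries of a group. Of 47 tested members, 25 (53.2%) had their highest value in vector 2, beside 22.8% of all tested genes, and 18 (38.3%) had their lowest value in DKO 2, beside 17.6%. Between the control libraries, 11 members (23.4%) were at least 1.5-fold higher in vector 2 than in vector 1, beside 8.67% of all genes, and 4 (8.51%), IFITM1, IRF9, OAS1 and GBP2, were at least 1.5-fold lower, beside 10.9%. The median log2 ratio of vector 2 to vector 1 was 0.22 over the members and -0.00 over all genes. These ratios compare libraries, not conditions.

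**Figure D4:**
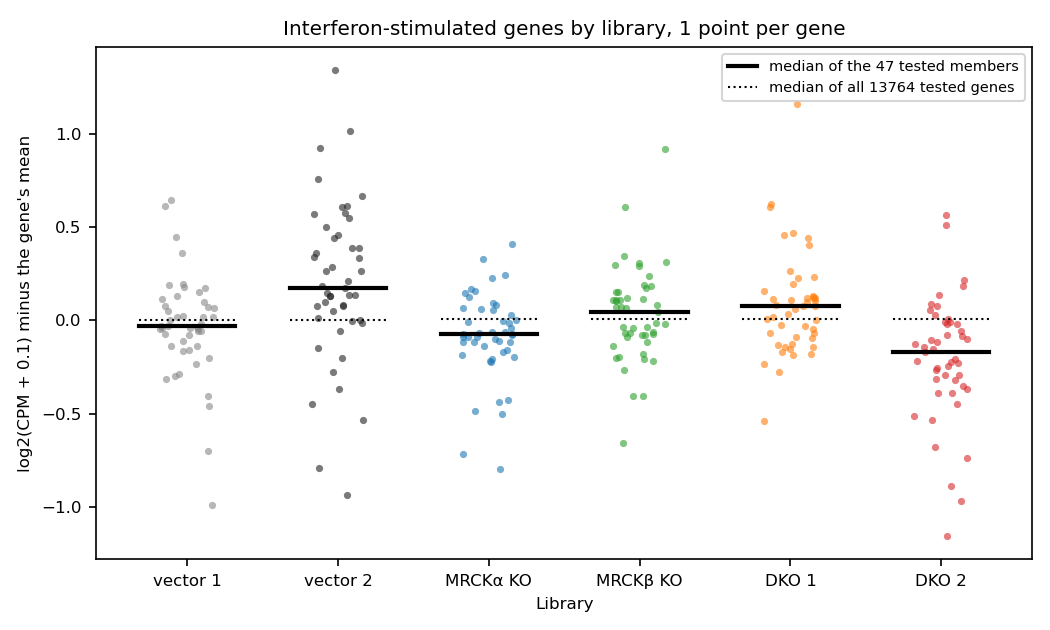
Difference of each tested member from its own mean over the 6 libraries (vertical axis, log2 of counts scaled to library size plus 0.1), 1 point per gene, by library, with full lines for the median of the 47 members and dotted lines for that of all 13764 tested genes. The members' median is highest in vector 2 (0.17) and lowest in DKO 2 (-0.17), while the dotted lines stay near 0.

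The members furthest above in vector 2 were USP18, MX2, IFI44L, XAF1 and IFI44. With exact 95% counting intervals, the log2 ratio of vector 2 to vector 1 was 2.13 (1.06 to 3.36) for USP18, 1.55 (0.51 to 2.69) for MX2 and 1.21 (0.35 to 2.13) for IFI44L. It was 1.08 (0.67 to 1.501) for XAF1 and 0.98 (0.74 to 1.23) for IFI44. These are the 5 highest of 47 ratios, picked for their size, and the intervals hold counting error without the spread between transductions. The 5 lowest were -1.60 (-2.05 to -1.17) for IFITM1, -0.90 (-1.23 to -0.58) for IRF9, -0.76 (-2.98 to 1.22) for OAS1, -0.60 (-1.02 to -0.19) for GBP2 and -0.49 (-1.31 to 0.30) for ISG20, of which those of OAS1 and ISG20 reached across 0. IFIT2 and IFIT1, neighbours with related proteins, had -0.47 (-0.64 to -0.31) and 0.79 (0.61 to 0.97). By role, the 5 tested members called other had a median of 0.98 and the ISG15 system 0.55, whereas the IFITM and tetherin group had -0.26.

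Between the DKO libraries, 9 members (19.1%) were at least 1.5-fold lower in DKO 2 than in DKO 1, beside 7.82% of all genes, and 1 member (2.13%), IRF7, was at least 1.5-fold higher, beside 5.67%. The median log2 ratio of DKO 2 to DKO 1 was -0.18 over the members and 0.00 over all genes. The IFIT group stood lowest among groups of at least 4 tested members, with a median of -0.84, and within it the ratio was -1.20 (-1.38 to -1.03) for IFIT2, -0.95 (-1.09 to -0.81) for IFIT3, -0.74 (-0.94 to -0.54) for IFIT1 and only -0.28 (-0.48 to -0.08) for IFIT5. OASL had -1.36 (-1.69 to -1.05) and IRF7 0.70 (0.27 to 1.14). Across the 47 members, the ratio between the vector libraries and that between the DKO libraries, which share no library, had a Pearson correlation of 0.39, beside 0.29 across 13561 genes, where genes are not independent replicates. The correlation over the members was positive although their medians had opposite signs.

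**Figure D5:**
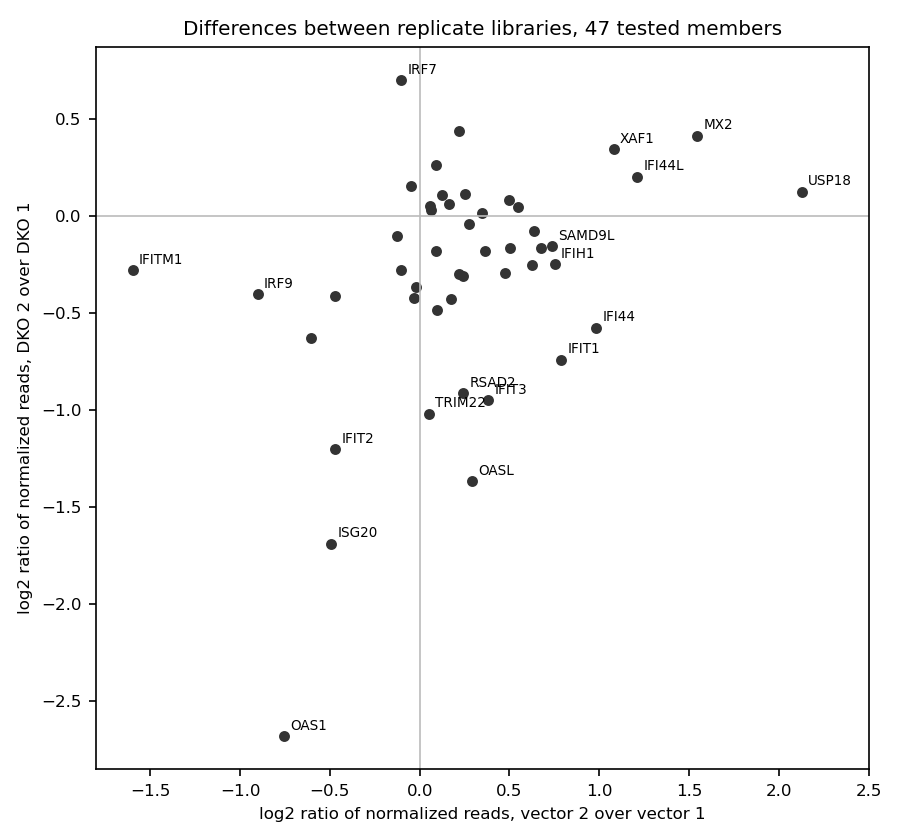
Log2 ratio of normalized reads of vector 2 over vector 1 (horizontal axis) and DKO 2 over DKO 1 (vertical axis), 1 point per tested member, with names where either ratio reaches 0.7 in size. USP18, MX2, IFI44L and XAF1 lie to the right at or somewhat above 0 on the vertical axis, and IFIT1, IFIT3, OASL and IFI44 lie at lower right.

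Among members with a matched promoter, the 24 tested ones with an ISRE match had a median log2 ratio of vector 2 to vector 1 of 0.32, and the 13 without had 0.13. Their median log2 fold changes in DKO were -0.18 over 23 members with a match and -0.16 over 12 without. The 10 members without a matched window had medians of 0.13 between the vector libraries and -0.01 in DKO. These medians are given without a spread, and no test compared them. Markers of cell type also differed between the control libraries. Of the tested markers, 3 of 5 mesenchymal, 2 of 5 epithelial, 2 of 4 leukocyte and 0 of 4 fibroblast genes were higher in vector 2 than in vector 1, so only the fibroblast list went in a single direction. All 7 fibroblast markers were analysed, and their summed level was 11.2 FPKM in vector 1, 3.75 FPKM in vector 2, 4.67 FPKM in MRCKα KO, 7.28 FPKM in MRCKβ KO, 6.17 FPKM in DKO 1 and 4.01 FPKM in DKO 2. PDGFRB, at the highest FPKM in 4 libraries, had 363 and 83 counts in the vector libraries, 130 in MRCKα KO, 281 in MRCKβ KO, and 191 and 69 in DKO 1 and DKO 2, COL1A1 was above it in vector 2 and DKO 2, and DCN, LUM and POSTN were at 0 in vector 2. The part of these differences in the values of the interferon-stimulated genes was not tested.

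Genes upstream of the members were read as well. Of 13 listed interferon genes only IFNL1 and IFNL3 were analysed here, with at most 2 counts, and nothing can be said of the others. All 10 listed receptor and kinase genes were tested, and in DKO 0 were lower and 1 was higher at an unadjusted p under 0.05, with a median of -0.01, where 1.02% of all genes were lower and 1.36% higher. That gene was TYK2, a kinase of the type I receptor, with an FPKM of 22.9 and 16.8 in the vector libraries, 20.1 in MRCKα KO, 23.02 in MRCKβ KO, and 27.2 and 30.2 in DKO 1 and DKO 2. Its log2 fold change was 0.50 (SE 0.18), or 0.75 without vector 1 and 0.28 without vector 2, its unadjusted p was 0.0623 to 0.105 in all fits without 1 library except that without vector 1, and both DKO libraries were above all others. The receptor chains IFNAR1 and IFNAR2 lay between 11.9 and 14.5 FPKM and between 4.60 and 5.87 FPKM, and IFNLR1, the chain for interferon lambda, had an FPKM of 2.78 and 1.27 in the vector libraries, 1.41 in MRCKα KO, 2.51 in MRCKβ KO, and 1.85 and 0.76 in DKO 1 and DKO 2, low in vector 2, MRCKα KO and DKO 2.

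Of 10 tested genes for upstream sensing, 1 was lower in DKO at an unadjusted p under 0.05 and 0 were higher (beside 1.02% and 1.36% of all genes), with a median of 0.00. The lower gene was TLR3, the endosomal sensor of double-stranded RNA, with an FPKM of 5.16 and 6.56 in the vector libraries, 3.03 in MRCKα KO, 3.72 in MRCKβ KO, and 3.01 and 3.81 in DKO 1 and DKO 2. Its log2 fold change was -0.88 (SE 0.22) in DKO, -0.97 (SE 0.29) in MRCKα KO and -0.71 (SE 0.28) in MRCKβ KO against the same controls, and in DKO it lay between -1.05 and -0.69 when 1 library was left out. Both vector libraries were above all 4 knockout libraries. The DNA sensor AIM2 had an FPKM of 2.44 and 5.07 in the vector libraries, 2.30 in MRCKα KO, 2.73 in MRCKβ KO, and 2.92 and 2.85 in DKO 1 and DKO 2 and so was highest in vector 2, as many members were, and TMEM173 (STING), the adaptor of DNA sensing, had an FPKM of 14.7 and 8.92 in the vector libraries, 12.6 in MRCKα KO, 15.9 in MRCKβ KO, and 15.1 and 7.99 in DKO 1 and DKO 2, lowest in vector 2 and DKO 2.

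Among the other lists, 0 of 3 tested further interferon regulatory factor genes and 0 of 4 tested negative regulators passed an unadjusted p of 0.05 in DKO, with medians of 0.11 and -0.04. SOCS1, which blocks the receptor kinases, had 9 and 13 counts in the vector libraries, 0 in MRCKα KO, 9 in MRCKβ KO, and 9 and 10 in DKO 1 and DKO 2. Of 15 class I antigen presentation genes, which interferon also induces, 2 were lower and 0 higher (beside 1.02% and 1.36% of all genes). Their median of -0.12 was -0.23 without vector 1, -0.04 without vector 2, -0.12 without DKO 1 and -0.21 without DKO 2. The number of lower genes changed in each fit without 1 library. The share of all genes at such a p changed as well, so that number is not read further. The list called NF-κB feedback held NFKBIA, TNFAIP3, NFKBIE, BIRC3, NFKB1, NFKB2, RELB, ICAM1, CXCL8, IL6 and CCL20, so not only feedback regulators. Like the other lists, it was chosen with earlier results of these data known. Of its 10 tested genes, 7 were higher and 0 lower (beside 1.36% and 1.02% of all genes), with a median of 0.88. The number of higher genes also changed in each fit without 1 library and is not read further for the same reason. The median lay between 0.57 without vector 1 and 1.44 without vector 2. These settings, like those of TYK2 and TLR3, were chosen after seeing the data. IRF1, which NF-κB can also induce, was lower in both DKO libraries than in both vector libraries, without passing the adjustment. A link between IRF1 and the NF-κB feedback genes was not tested. Of 8 housekeeping genes, 0 passed in either direction, with a median of -0.15.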

How the data were processed

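RNA of 6 MDA-MB-231 libraries was read on the BGISEQ-500 platform. The expected counts (estimated reads per gene, which need not be whole) were made for the authors by BGI before the files were deposited and are not normalized. The deposited FPKM values, also made for the authors by BGI, are scaled to transcript length and library size. The submitters' processing notes name Bowtie2, HISAT, RSEM and GRCh38.p11 without versions or the role of each tool. Here, counts were filtered by filterByExpr, normalized by TMM and tested with the quasi-likelihood F-test of edgeR 4.0.16 in R 4.3.3, with Benjamini-Hochberg adjustment over all tested genes. The DKO test used the 4 vector and DKO libraries, and the single knockouts a fit of 6 libraries in 4 groups. DESeq2 1.42.0 and limma 3.58.1 served as alternatives, and the edgeR fits were tested on simulated data. Tables and figures were made with Python 3.11.15, pandas 2.3.3, numpy 2.4.6, scipy 1.17.1 and matplotlib 3.10.9. Ratios between libraries of a group used TMM-normalized counts with exact binomial intervals. The members and lists were chosen with earlier results of these data known. The rule for named genes was STAT2, IRF1, IRF7 and IRF9, the 5 members with the highest mean FPKM, members with an unadjusted p under 0.05 in DKO, the 5 highest and 5 lowest fold changes in DKO, members with at least 10 counts that passed the 2-fold rule, the 5 highest and 5 lowest ratios of vector 2 to vector 1, and the IFITM and IFIT families. Other members and the single genes of other lists were named after their values were seen. Promoter windows came from RefSeq on GRCh38.p14, a later patch of the build used for the counts.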

Additional observations from a re-analysis of the deposited data

How the results depend on the processing

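Of 289 alternative values, 254 were counted as unchanged, 28 as moved and 7 changed sign. Unchanged means the same sign and side of an adjusted p of 0.05 for a gene, within 1.5-fold for a count and within 0.16 (the SD between replicates) for a median, so that such values can still differ much, as for the DKO median (-0.28 to -0.03 when 1 library was left out). No alternative called a member at an adjusted p under 0.05. In DKO, limma on FPKM plus 0.1 or plus 1 gave 1 member at an unadjusted p under 0.05 in place of 3, and leaving out 1 library in turn gave 1 to 10. In both limma fits 2.22% of members had such a p, beside 2.80% of all genes. The main fit had 6.67% of members, beside 2.39% of all genes. By limma the members' share was thus not above that of all genes. The fold rule, which gave 1 member in DKO, gave 2 without the exclusion of genes that differ between replicates and 2 with 0.1 added. It gave 0 with 1 added and 0 when 1 FPKM on average was required. For MRCKα KO it gave 3, then 5 without the exclusion and 0 with 1 added. For MRCKβ KO it gave 3, then 0 with 1 added. Each main count also changed when a vector library was left out. The shares of all genes under these settings of the fold rule are not given, so its counts cannot be set beside them. Without a vector library the median log2 fold change of the members was -0.29 to -0.0302 in MRCKα KO and -0.19 to 0.0163 in MRCKβ KO. Leaving out 1 library in turn, the DKO log2 fold change ran from -0.0304 to 0.67 for IRF7, -0.63 to 0.28 for IRF9, -0.0192 to 0.67 for GBP2, -0.44 to 1.09 for MX2 and -0.0330 to 0.24 for OAS3. With the replicate number as a replicate block, 4 of 45 members (8.89%) had an unadjusted p under 0.05, beside 6.07% of all genes. In that fit 0 members and 5 of all genes were called, and the members' median was -0.16. Deviations of vector 1 and DKO 1 from their group means correlated at 0.36 over 13123 genes, but the samples share only a number. The cause was not tested.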
